A study of Mus musculus with 52 samples.

Results

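The AP-1 transcription factors described here are 8 genes, Fos, Fosb, Fosl1, Fosl2, Jun, Junb, Jund and Maff, taken by symbol from the 22417 genes of each deposited table. They were followed in mouse embryonic fibroblasts treated with thapsigargin (Tg, which empties the calcium store of the endoplasmic reticulum, ER, by blocking its pump) over 0.5, 1, 2 or 4 h, in cells given dithiothreitol (DTT, which reduces disulfides of proteins folding in the ER) for 30 min with 0, 10 or 20 min of recovery afterwards, and in untreated cells. All cells, untreated ones included, were of 1 genotype, heterozygous for CReP (CReP+/-) and wild type for GADD34 (GADD34+/+); both proteins are subunits of the phosphatase that acts on eIF2 alpha. After fractionation into ER and cytosol, ribosome-protected fragments (footprints) and mRNA were sequenced. Each group had 2 replicates, given in the tables as 1 pooled score for a gene and group, so no difference could be set against a spread between replicates and none was tested. The labels do not say whether the replicates were separate cultures.

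AP-1 is a dimer of basic leucine zipper proteins. Fos proteins do not form stable dimers with each other and bind DNA as partners of Jun proteins, while Jun proteins can also pair among themselves. Fos, Fosb, Jun and Junb are textbook immediate early genes, whose transcripts appear within minutes of a stimulus without new protein synthesis and are soon degraded. Fosl1 and Fosl2 encode Fra-1 and Fra-2, which lack the strong activation region of Fos, and Jund is usually made steadily. Maff is a small Maf protein, a related zipper protein without an activation region of its own, that pairs with factors such as Nfe2l2 and can also bind Fos.

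The promoters of 4 of the genes are shown. In the results that follow, Fos and Jun stood highest at 0.5 h of Tg, Junb at 1 h, and Maff at 1 to 2 h. Fosl2, also highest at 1 to 2 h, is not shown. The sequences are from RefSeq (GRCm38.p6), run 5′ to 3′ on the strand of the gene, and cover 250 bases before to 50 bases after the annotated start. Capitals mark the letters TGACG, the core of the site bound by CREB and ATF proteins, TGACGTCA, its full palindrome, or TGACATCA, a variant of the palindrome. Of the 3 promoter entries of Maff, that with TGACGTCA was chosen for display. Each sequence shown holds a marked stretch, which was not so for every gene. Fos lies at chr12:85473640-85473939 (+), Jun at chr4:95052173-95052472 (-), Junb at chr8:84978699-84978998 (-) and Maff at chr15:79347270-79347569 (+).
Fos: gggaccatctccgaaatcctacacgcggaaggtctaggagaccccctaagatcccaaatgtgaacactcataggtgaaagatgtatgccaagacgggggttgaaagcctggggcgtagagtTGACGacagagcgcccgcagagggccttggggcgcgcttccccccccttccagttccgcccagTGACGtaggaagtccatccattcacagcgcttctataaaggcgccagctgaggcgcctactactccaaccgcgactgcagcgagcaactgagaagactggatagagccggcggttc
Jun: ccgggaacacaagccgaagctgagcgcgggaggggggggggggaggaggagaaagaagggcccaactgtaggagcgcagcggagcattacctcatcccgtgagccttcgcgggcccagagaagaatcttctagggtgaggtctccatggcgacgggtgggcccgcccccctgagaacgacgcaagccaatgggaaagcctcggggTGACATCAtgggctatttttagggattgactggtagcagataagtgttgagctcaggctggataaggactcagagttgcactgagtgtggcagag
Junb: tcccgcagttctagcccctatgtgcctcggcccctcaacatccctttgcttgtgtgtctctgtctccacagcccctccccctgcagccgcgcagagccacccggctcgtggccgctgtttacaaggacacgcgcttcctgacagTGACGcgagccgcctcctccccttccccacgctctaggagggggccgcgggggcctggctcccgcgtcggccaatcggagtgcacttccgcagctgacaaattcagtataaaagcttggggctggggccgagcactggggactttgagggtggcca
Maff: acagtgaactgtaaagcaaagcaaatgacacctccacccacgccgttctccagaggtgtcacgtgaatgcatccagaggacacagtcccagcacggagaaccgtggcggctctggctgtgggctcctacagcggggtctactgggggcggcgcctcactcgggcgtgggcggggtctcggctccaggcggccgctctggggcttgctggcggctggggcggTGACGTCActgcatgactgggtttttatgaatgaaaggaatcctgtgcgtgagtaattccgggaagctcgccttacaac

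RefSeq promoter entries were matched for 7 of the 8 genes, with 3 for Maff, which makes 9 promoters. TGACG, read on either strand, was found in 5 of the 9, those of Fos, Fosb, Junb and 2 of Maff, beside 20.8% of all 32851 promoters of the same length. Fos held it at positions -129 and -66 from the start, Junb at -106 and Fosb at -60. TGACGTCA, which contains TGACG on both strands, was present in 1.79% of all promoters and in 1 of Maff, at -29. TGACATCA, searched on both strands, was present in 3.62% of all promoters, and among the 9 in Jun and 1 other promoter of Maff, both at -45. Neither TGAGTCA, the classical AP-1 site (5.20% of all promoters), nor the CArG box bound by SRF (1.63%) was matched in any of the 9. The promoters of Fosl2 and Jund matched none of the motifs searched. These are matches of letters in a short window and not measured binding. Sequence further than 250 bases before the start was not searched, so the lack of a match does not mean that a gene lacks the site.

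The cells carried fibroblast markers. In untreated footprints, summed over ER and cytosol, all 10 fibroblast markers had a value above that of the median gene, with a median score of 156 beside 13.1 for all genes. None of the 4 epithelial, 4 endothelial and 5 leukocyte markers was above the median gene, and 7 of these 13 had a value at all. Of 3 muscle markers, Des and Myod1 were blank and Acta1, which has near-identical actin copies and is uncertain, had a score of 648. Footprint columns held a value for 9205 to 12676 genes and mRNA columns for 3596 to 5357. The untreated columns of the DTT table were those of the Tg table times 0.913 (ER) or 1.06 (cytosol), so the Tg and DTT comparisons share their untreated cells. Whether scores were divided by gene length is not stated, so levels are compared within a gene and not between genes. The differences given are of log2(score + 1), which understates the change of genes with low scores, and a gene is counted as higher or lower where the difference passes 1 in size (2-fold).

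Under Tg, footprints of 7 of the 8 genes passed 2-fold above untreated cells at some time in at least 1 fraction, as did 25.4% of the 12300 genes with any such comparison. Jund was the exception. In such bulk samples, more footprints in every cell and footprints in more of the cells cannot be told apart. At 0.5 h, 3 of 8 genes were higher in the ER (Fos, Fosb and Fosl1), where 4.42% of 11886 genes were, and 3 of 7 in the cytosol (Fos, Jun and Junb, the last 0.99 relative to the median gene), where 17.6% of 9686 genes were. The background differed between the fractions, since the median gene had a log2 difference of -0.17 in the ER, while that in the cytosol was 0.23. At 1 h, 6 of 8 genes were higher in the ER, against 5.79% of 11197 genes, and 4 of 7 in the cytosol, against 14% of 10113 genes. At 2 h the counts were 4 of 7 in the ER, against 6.64% of all genes, and 3 of 7 in the cytosol, against 11.2%. By 4 h, Maff alone was higher in the ER (5.03% of all genes) and 0 of 7 genes were in the cytosol (4.92%). At that time Jun was lower in the ER (2.37% of all genes were lower) and Jun and Fosl1 were lower in the cytosol (2.22%).

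**Figure D1:**
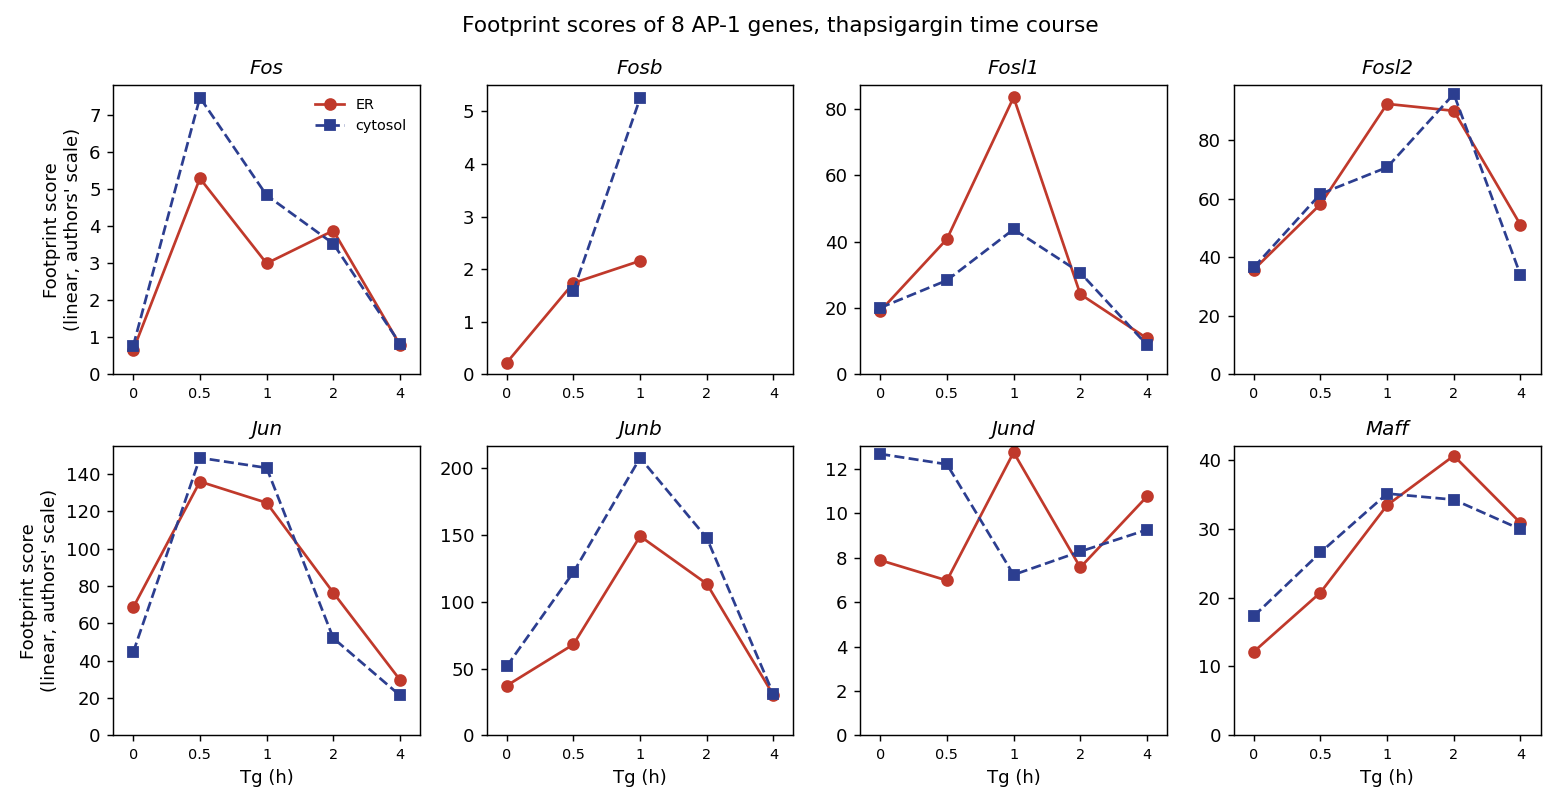
Footprint scores (linear, authors' scale, each panel with its own axis) of the 8 genes after 0, 0.5, 1, 2 and 4 h of Tg, drawn at equal spacing, in the ER (circles) and the cytosol (squares); each point is 1 pooled value without an error. Fos and Jun stood highest at 0.5 h, Fosl1 and Junb at 1 h, Fosl2 and Maff at 1 to 2 h, and Jun was below its untreated score by 4 h.

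Fos, the founding partner of Jun, had ER footprint scores of 0.657, 5.29, 2.99, 3.88 and 0.796 at 0, 0.5, 1, 2 and 4 h of Tg. Its cytosol scores over the same times were 0.770, 7.47, 4.83, 3.53 and 0.829. The score at 0.5 h was 8.04 times that of untreated cells in the ER and 9.69 times in the cytosol, and by 4 h both fractions were again close to untreated (log2 differences 0.12 and 0.05). In the ER the 0.5 h difference of 1.92 ranked 43 of 11886 genes. In the cytosol the difference of 2.26 ranked 656 of 9686. Fosb, a close relative of Fos, had ER scores of 0.223, 1.74 and 2.16 at 0, 0.5 and 1 h and was blank at 2 and 4 h. In the cytosol it had a value only at 0.5 h (1.59) and 1 h (5.25), so its cytosol difference from untreated cells could not be computed. Its ER differences were 1.16 and 1.37. The untreated scores of Fos and Fosb are below 1, the depth behind them is unknown, and the tables do not explain their blanks.

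Fosl1 (Fra-1) had its highest score later than Fos. Its ER scores were 19.1, 40.8, 83.4, 24.2 and 10.9 at 0, 0.5, 1, 2 and 4 h, and its cytosol scores 20.1, 28.3, 43.7, 30.6 and 8.86. The 1 h difference was 2.07 in the ER, rank 91 of 11197, and 1.09 in the cytosol (0.98 relative to the median gene). The 0.5 h difference in the ER, 1.06, was 0.80 on the sum of both fractions. At 4 h Fosl1 differed from untreated cells by -0.76 in the ER and -1.09 in the cytosol, and by -0.95 on the sum. Fosl2 (Fra-2) stayed high longer. Its ER scores were 35.8, 58.1, 92.4, 90.0 and 51.1 over the same times, and its cytosol scores 36.5, 61.6, 70.7, 95.7 and 33.9. The differences were 1.34 (ER) and 0.93 (cytosol) at 1 h and 1.31 and 1.37 at 2 h, and those at 4 h were within 2-fold (0.50 and -0.10).

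Jun, the main partner of Fos proteins, had ER scores of 68.6, 136, 125, 76.4 and 29.8 at 0, 0.5, 1, 2 and 4 h of Tg. Its cytosol scores were 44.6, 149, 143, 52.1 and 21.4. In the cytosol the score at 0.5 h was 3.33 times that of untreated cells (difference 1.71). In the ER it was 1.98 times (0.98), just within 2-fold, and past it relative to the median gene (1.15). The sign turned by 4 h, when the score was 0.434 times that of untreated cells in the ER and 0.481 times in the cytosol; the ER difference of -1.18 ranked 11538 of 11704. Junb, a Jun protein that activates less strongly than Jun, had ER scores of 37.3, 68.2, 149, 114 and 30.1 and cytosol scores of 51.8, 122, 208, 148 and 30.8. At 1 h it stood 4.00 times (ER) and 4.01 times (cytosol) above untreated cells, and at 4 h it was below them but within 2-fold (-0.30 and -0.73). Junb, unlike Jun, was still higher at 2 h, by 1.58 in the ER and 1.495 in the cytosol, where the differences of Jun were 0.15 and 0.22.

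Jund had ER scores of 7.88, 6.97, 12.7, 7.56 and 10.7 and cytosol scores of 12.7, 12.2, 7.23, 8.27 and 9.25 at the same times. All 8 of its differences from untreated cells were within 2-fold, between -0.73 and 0.63. Summed over both fractions it had 20.0 at 1 h and 20.5 in untreated cells. Maff had ER scores of 12.1, 20.7, 33.4, 40.6 and 30.8 and cytosol scores of 17.3, 26.5, 35.1, 34.2 and 29.9. Of the 7 genes with a value at 4 h it was the only one still over 2-fold higher, by 1.28 in the ER. In the cytosol its differences were 0.59, 0.98, 0.94 and 0.76, each within 2-fold.

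After 30 min of DTT, 2 of 7 genes (Fos and Junb) were higher in the ER, where 8.96% of 9166 genes were. In the cytosol 4 of 7 were higher (Fos, Jun, Junb and Jund), where the background was high, at 30.3% of 9813 genes. The median gene differed by -0.23 in the ER and 0.49 in the cytosol, and relative to it Jund in the cytosol (1.45) stood at 0.96 and Jun in the ER (0.82) at 1.05. Fos, Junb, Fosl1 and Fosl2 stood further from untreated cells at both recovery times than after DTT alone, in both fractions. Jun, Jund and Maff did so only in part. Against untreated cells, 2 of 7 genes were higher in the ER after 10 min of recovery (5.79% of 11010 genes) and 6 of 8 after 20 min (5.76% of 11780). In the cytosol 4 of 7 were higher at both times, against 20.8% of 10178 and 12.9% of 10160 genes.

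**Figure D2:**
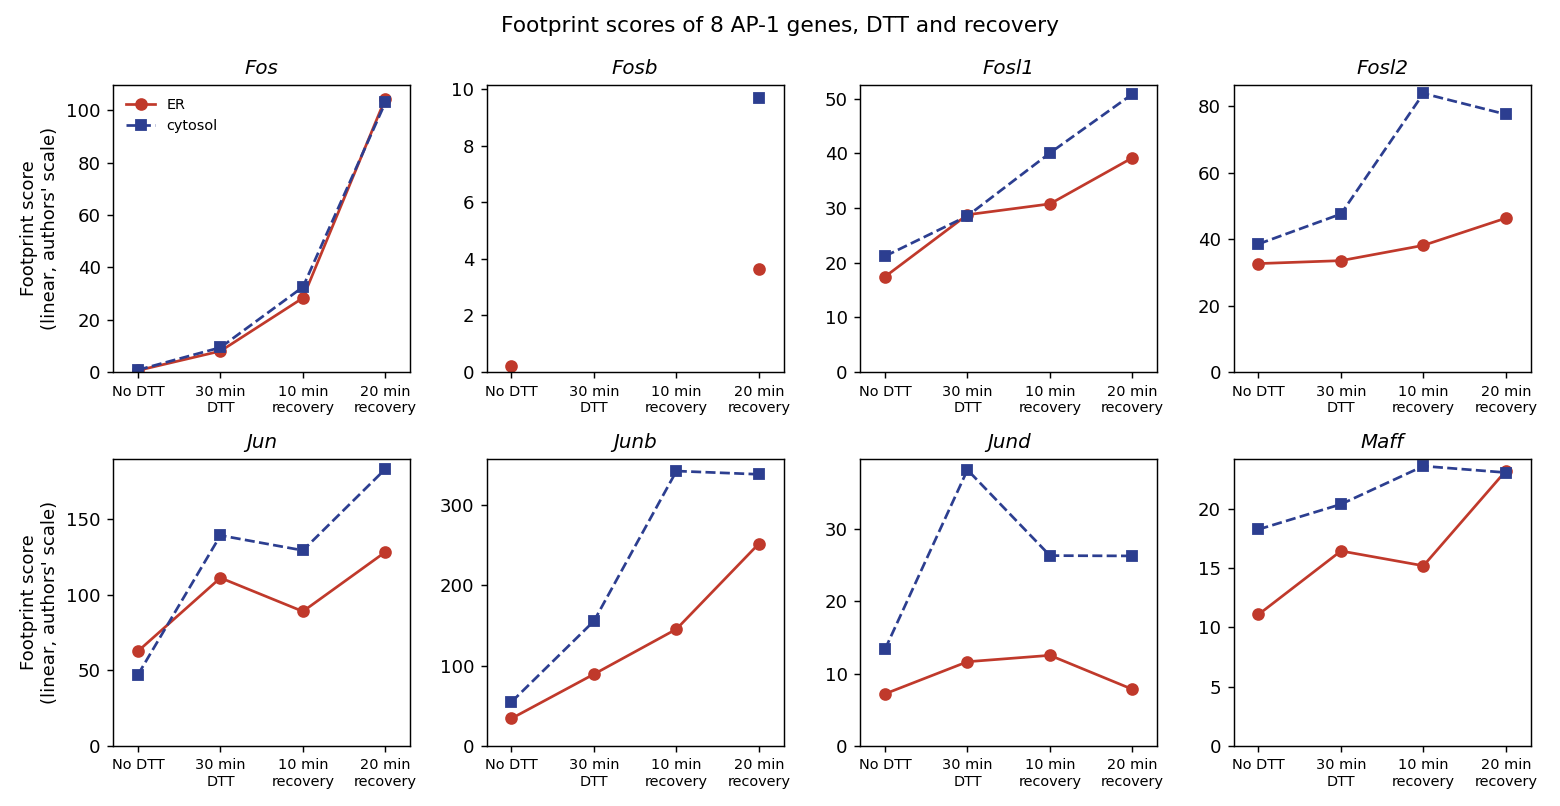
Footprint scores of the 8 genes (authors' scale, each panel with its own axis) in untreated cells, after 30 min of DTT and after 10 and 20 min of recovery, in the ER and the cytosol; each point is 1 pooled value without an error. Fos reached 104 (ER) and 103 (cytosol) after 20 min of recovery, and Junb 252 and 339, while Maff stayed between 11.1 and 23.6.

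Fos had ER scores of 0.600, 7.996, 28.3 and 104 in untreated cells, after 30 min of DTT, and after 10 and 20 min of recovery. Its cytosol scores in that order were 0.813, 9.38, 32.5 and 103. After 20 min of recovery the score was 174 times that of untreated cells in the ER, rank 1 of 11780 genes by log2 difference, and 127 times in the cytosol, rank 2 of 10160. Because the untreated score was below 1, these ratios rest on a low value, and the log2(score + 1) differences were 6.04 and 5.84. Against 30 min of DTT, whose score was well above 1, the difference after 20 min of recovery was 3.55 in the ER and 3.32 in the cytosol, and Fos ranked 1 of 9170 and 1 of 10431 genes. The 0.5 h Tg score, in the Tg table, was 5.29 in the ER and 7.47 in the cytosol. Fosb had an untreated ER score of 0.204 and next a value after 20 min of recovery, when it had 3.65 in the ER and 9.67 in the cytosol; the ER difference was 1.95.

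Junb had ER scores of 34.1, 89.4, 146 and 252 and cytosol scores of 54.7, 156, 343 and 339 in the order untreated, DTT, 10 and 20 min of recovery. After 20 min it stood 7.40 times above untreated cells in the ER, rank 42 of 11780, and 6.19 times in the cytosol, rank 77 of 10160. Jun had ER scores of 62.6, 111, 88.9 and 128 and cytosol scores of 47.1, 139, 129 and 183. Unlike Fos and Junb it differed from 30 min of DTT by less than 2-fold at both recovery times (-0.32 to 0.39). Against untreated cells it was higher in the cytosol at both times (1.44 and 1.94; 0.99 after 10 min on the summed fractions) and, by 1.02, in the ER after 20 min (0.97 relative to the median gene). Jund had ER scores of 7.20, 11.6, 12.5 and 7.83 and cytosol scores of 13.4, 38.2, 26.4 and 26.3. Under Tg its cytosol scores had stayed between 7.23 and 12.2.

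Of the Fra proteins, Fosl1 had ER scores of 17.4, 28.8, 30.7 and 39.2 and cytosol scores of 21.2, 28.5, 40.0 and 50.8 in the same order. Its differences from untreated cells passed 2-fold after 20 min of recovery (1.12 and 1.22; relative to the median gene 0.94 in the cytosol). Fosl2 had ER scores of 32.7, 33.5, 38.2 and 46.4, none over 2-fold above untreated cells, and cytosol scores of 38.6, 47.6, 83.9 and 77.6. The cytosol difference of Fosl2 was 1.102 after 10 min (0.72 relative to the median gene) and 0.99 after 20 min. Maff had ER scores of 11.1, 16.4, 15.2 and 23.2 and cytosol scores of 18.3, 20.4, 23.6 and 23.1, and passed 2-fold only in the ER after 20 min, by a margin within rounding (1.00; 0.95 relative to the median gene).

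Recovery was also set against the end of DTT treatment, for 7 genes. After 10 min, Fos was higher in the ER (1.70), where 10.1% of 9101 genes were, and Fos (1.69) and Junb (1.13; 0.99 on the summed fractions) in the cytosol, where 1.37% of 10644 were. After 20 min, Fos and Junb were higher in both fractions, against 17.2% of 9170 genes in the ER and 1.29% of 10431 in the cytosol. Junb differed by 1.49 and 1.12. The other 5 were within 2-fold at both times, from -0.52 for Jund to 0.81 for Fosl1, although Fosl1 in the cytosol after 20 min was past it relative to the median gene (1.07). In the cytosol the median gene was 0.26 lower after 20 min of recovery than at the end of DTT.

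**Figure D3:**
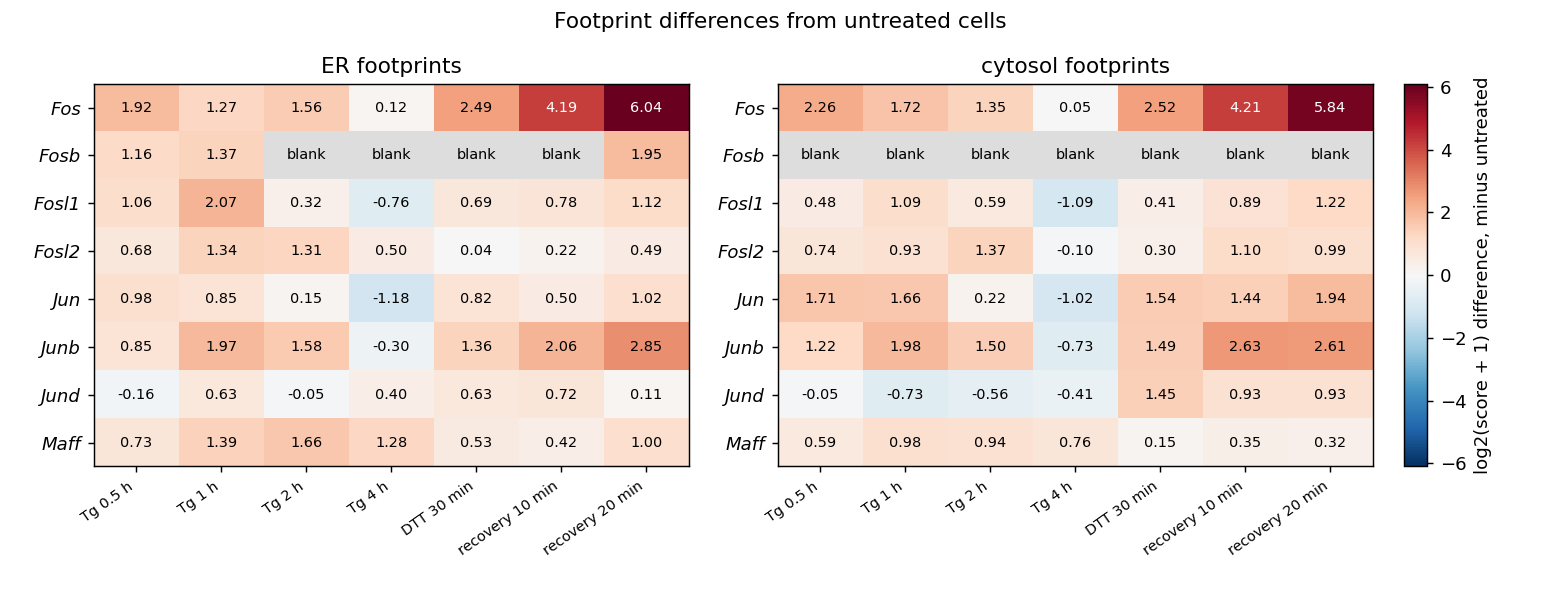
Differences of log2(score + 1) from untreated cells for each gene (rows) and treatment (columns), footprints in the ER (left) and the cytosol (right); red is higher and blue lower than untreated, and grey marks comparisons with a blank. The largest were those of Fos after 20 min of recovery (6.04 and 5.84), and Jun (-1.18 and -1.02) and Fosl1 (-1.09 in the cytosol) were below -1 after 4 h of Tg.

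The 8 proteins act in the nucleus, and all 8 genes are FALSE in a column without a header that is TRUE for 8434 genes. Their footprints lay in both fractions. In untreated cells the share of the summed score found in the ER ranged from 38.4% to 60.6% over the 7 genes with both values, with a median of 46.0%. The log2 difference of ER minus cytosol was 0.61 for Jun and -0.62 for Jund, the outermost of the 7, beside -0.46 for the median gene. None of the 7 passed 2-fold either way, where 24.8% of 10340 genes did, although Jun did so relative to the median gene (1.07). Since each fraction carries its own scaling constant, the share has no absolute meaning. Over all Tg and DTT conditions the ER share of Fos stayed between 38.3% and 52.4% and that of Maff between 37.8% and 54.3%. Jund was the most variable, from 22.9% after 20 min of DTT recovery to 63.8% after 1 h of Tg.

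mRNA scores were sparse for these genes. In the Tg table, 30 of 80 possible mRNA values were present, and in the DTT table, 18 of 64, while footprints had 75 of 80 and 59 of 64. Fosb and Maff had no mRNA value at all, and the lowest mRNA score of any of the 8 genes was 10.9. Fosl1 was the only gene with a value in all 10 Tg columns. Its ER mRNA scores were 32.4, 18.04, 26.7, 17.7 and 21.1 at 0, 0.5, 1, 2 and 4 h of Tg, and its cytosol scores 15.3, 39.8, 18.2, 19.8 and 14.8. Its mRNA was thus higher in the cytosol at 0.5 h (difference 1.33), where 11% of 3415 genes were, while its ER difference was -0.81. Summed over both fractions it scored 57.8 at 0.5 h and 47.7 in untreated cells, within 2-fold (0.27). In untreated cells it was higher in the ER than in the cytosol by 1.04, as were 12.7% of 3557 genes. Relative to the median gene that difference was 0.86, and on the scale of the DTT table it was 0.84, both within 2-fold. At 1 h, when its footprints were highest, the mRNA differed from untreated cells by -0.27 in the ER and 0.24 in the cytosol.

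Fosl2 mRNA in the ER scored 13.04, 15.1, 27.3 and 31.9 at 0, 0.5, 1 and 2 h of Tg and was blank at 4 h. It was higher than in untreated cells at 1 h (1.01), as were 1.29% of 4116 genes, and at 2 h (1.23), as were 2.62% of 3892 genes. Its cytosol mRNA was blank in untreated cells and at 4 h and scored 22.6, 12.7 and 16.6 between. Junb mRNA was blank in untreated cells in both fractions. In the ER it scored 13.98, 13.3, 14.03 and 16.8 at 0.5, 1, 2 and 4 h of Tg, and in the cytosol 21.2, 19.5 and 11.5 at 0.5, 1 and 2 h. Its ER footprints over those 4 times varied from 30.1 to 149. Jun mRNA had values at 1 h in the ER (10.9) and 2 h in the cytosol (11.5), and Jund mRNA in both fractions at 2 and 4 h (11.2 to 21.1).

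In the DTT table Fos mRNA was blank in untreated cells and after 30 min of DTT. In the ER it scored 22.3 after 10 min and 31.2 after 20 min of recovery, and in the cytosol 44.3 after 20 min. Junb mRNA likewise had values only in recovery, 27.95 and 22.02 in the ER and 19.7 and 22.2 in the cytosol. Fosl2 mRNA in the ER scored 11.9 in untreated cells, 16.1 after DTT, and 24.6 and 19.9 in recovery. Where 1 of the values compared was blank, no difference could be given.

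Ribosome density, the deposited ratio of footprints to mRNA, can be set beside that of other genes. Junb stood high in the order of all genes whenever it had a value, except at 4 h of Tg. In the ER its density was 4.96, 13.3, 7.77 and 1.67 at 0.5, 1, 2 and 4 h of Tg, above 94.7%, 99.2%, 98.4% and 73.7% of genes. In the cytosol it was 5.75, 10.7 and 12.97 at 0.5, 1 and 2 h, above 91.9%, 95.4% and 97.7%. After 10 and 20 min of DTT recovery the density of Junb was 4.61 and 9.04 in the ER and 16.7 and 16.9 in the cytosol, the last above 99.5% of genes.

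**Figure D4:**
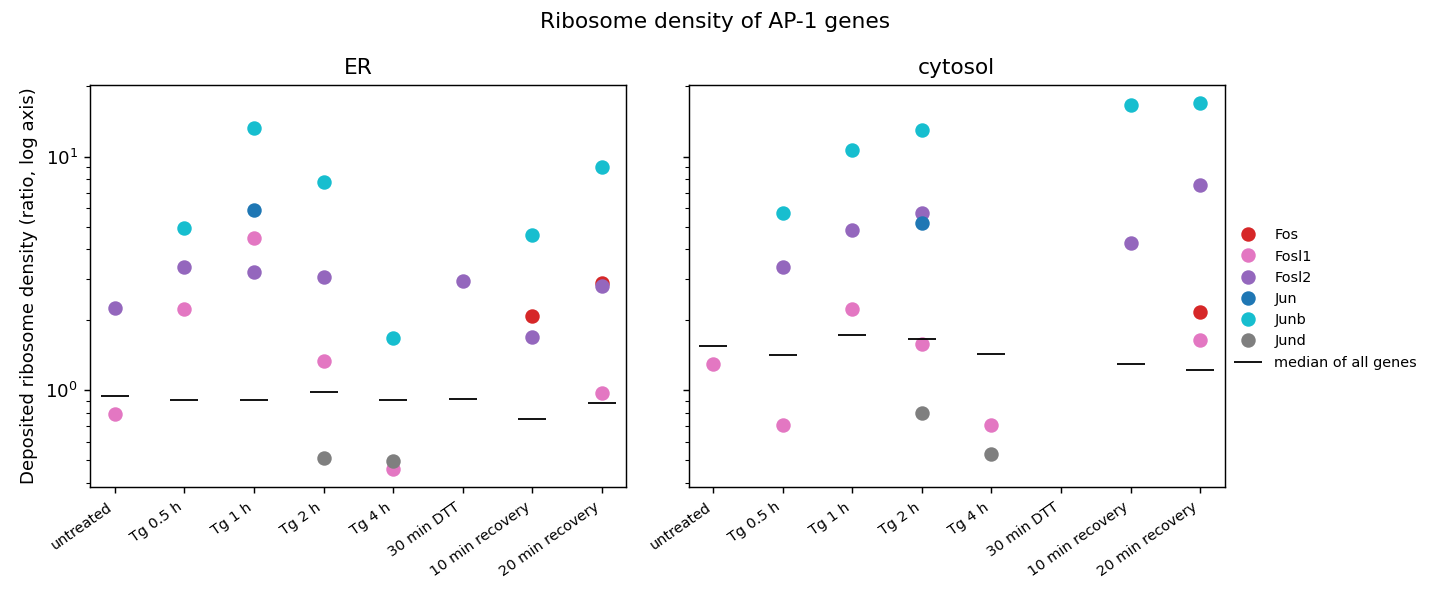
Deposited ribosome density (ratio of footprints to mRNA, log axis) of the genes with values, in the ER and the cytosol, beside the median of all genes with a density in that column; each point is 1 pooled value. Junb reached 13.3 in the ER at 1 h of Tg and 16.9 in the cytosol after 20 min of recovery, and Jund stayed below the median of all genes.

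Fosl1 density in the ER was 0.788, 2.23, 4.49, 1.33 and 0.459 at 0, 0.5, 1, 2 and 4 h of Tg. It was over 2-fold higher than in untreated cells at 0.5 h (log2 ratio 1.504), as in 14.2% of 3855 genes, and at 1 h (2.51), as in 11.3% of 3831 genes, where it ranked 34. In the cytosol its density was 1.30, 0.706, 2.22, 1.58 and 0.711, with log2 ratios to untreated cells between -0.88 and 0.77. Recomputed from the deposited scores, the log2 ratio of Fosl1 passed 2-fold in the ER at 2 h (1.21; 0.75 as deposited) and in the cytosol at 4 h (-1.14; -0.87 as deposited). Fosl2 density lay above the median gene in each column where it had one. In the ER it was 2.25, 3.38, 3.21 and 3.06 at 0, 0.5, 1 and 2 h of Tg, and in the cytosol 3.35, 4.83 and 5.74 at 0.5, 1 and 2 h. After 10 and 20 min of DTT recovery its cytosol density was 4.25 and 7.55, the second above 96.7% of genes. Jun density was 5.88 in the ER at 1 h of Tg and 5.21 in the cytosol at 2 h. Fos density in recovery was 2.07 and 2.87 in the ER and 2.15 in the cytosol after 20 min. Jund, by contrast, had a density at 2 and 4 h of Tg of 0.512 and 0.498 (ER) and of 0.797 and 0.533 (cytosol), above 21.3% to 29.03% of genes. Deposited densities were not always the quotient of the deposited scores, which for Jun in the ER at 1 h was 1.94 times the deposited density and for Fosl1 in the ER after 20 min of recovery 2.04 times. For Fos in the ER it was 0.614 times the deposited density after 10 min of recovery and 1.17 times after 20 min, so the quotients were 1.27 and 3.35.

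The footprint differences from untreated cells, 14 for each gene over both fractions, order the genes by likeness. Pearson's r was 0.82 between Fos and Junb, 0.81 between Fosl1 and Junb and 0.76 between Jun and Junb. It was -0.47 between Fos and Maff and -0.49 between Jun and Maff. Both Fos and Maff stood above untreated cells in each of these differences, so a negative r does not mean opposite directions of change. These 14 points share the same untreated columns and are described without a test. Among 4071 genes with all values and a level above the median gene, those most like Fos were Ier2 (r = 0.97), another immediate early gene, the early zinc finger factor Egr1 (0.96) and Nab2 (0.96), a corepressor of Egr proteins. Fos differed most in DTT recovery, and those points weigh heavily in each r with Fos. In the ER, Ier2, Egr1 and Nab2 differed by 3.49, 3.04 and 0.63 after 20 min of recovery, and by 1.58, 0.31 and -0.73 at 1 h of Tg. Most like Fosl1 were Nfkbia (0.94), an inhibitor of NF-kappa-B, Bcar1 (0.91) and Tnfaip3 (0.88). Most like Junb were Sertad1 (0.94), Errfi1 (0.92) and Kif22 (0.91), and most like Jun were Spag5, Ppp1r10 and Ankrd1 (0.92 each). Fosl2 was followed most closely by Ccrn4l (0.88), Klf10 (0.85) and Ets1 (0.84), Jund by Ctbp1, Map2k2 and Cox8a (0.88 each), and Maff by the kinase Mapk8 (0.93), Utp18 (0.87) and the uncertain LOC101055799 (0.85). Fosb had too few values. For each of the others these are the 3 highest among 4071 genes over only 14 points. A high r can arise between genes whose differences have opposite signs. At 1 h of Tg in the ER, Nab2 differed by -0.73 (Fos 1.27), Errfi1 by -0.32 (Junb 1.97) and LOC101055799 by -0.43 (Maff 1.39). Ctbp1 and Map2k2 were also lower (-0.26 each), where Jund differed by 0.63. The other genes named as most alike were higher.

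Genes that act with AP-1 were counted on footprints summed over ER and cytosol. Among 9631 genes at 0.5 h of Tg, 6.49% were over 2-fold higher and 1.87% lower, with a median difference of 0.03. Of 18 kinases and transcription factors upstream of AP-1 genes, 0 were higher and 0 lower (median -0.21). The kinase Map2k1, within 2-fold, had a summed score of 86.4 at 0.5 h and 152 in untreated cells. After 30 min of DTT, 2 of 16 were higher, against 16.5% of 8378 genes, namely Srf (1.87), which binds the CArG box, and its partner Elk1 (1.64). The lower ones were 3, Map2k4 (-1.33), Mef2a (-1.17) and Map2k1 (-1.15), against 2.86% of genes.

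Of the MAP kinase phosphatases, which switch MAP kinases off, 2 of 7 were higher at 0.5 h of Tg, Dusp1 (1.76) and Dusp10 (1.05), against 6.49% of all genes. The number lower was 0, against 1.87%. Dusp1 scored 79.7 at 0.5 h and 22.8 in untreated cells. After 30 min of DTT 1 of 5 was higher, Dusp10 (1.80), against 16.5% of all genes. The binding proteins of AU-rich elements lead Fos and other short-lived mRNAs to decay or shield them from it. At 0.5 h of Tg 1 of 6 was higher, against 6.49% of all genes. It was Zfp36 (2.02), which scored 37.2 at 0.5 h and 8.41 in untreated cells. After 20 min of DTT recovery 2 of 6 were higher than in untreated cells, against 6.19% of 10059 genes, Zfp36 (4.55; 216 and 8.24) and Zfp36l1 (1.28). Zfp36, which promotes decay, was thus high at the same time as Fos.

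Among other zipper proteins that pair with AP-1 or Maf proteins, 1 of 11 was higher at 0.5 h of Tg, Atf4 (2.96), against 6.49% of all genes. At 1 h 4 of 12 were, against 5.84% of 9832 genes, among them Atf4 (3.21), the stress-induced Atf3 (2.10) and Maf (1.24). At 4 h Atf4 (3.37), Atf3 (3.04) and Nfe2l1 (1.17) were higher, 3 of 12 against 4.01% of 10126 genes, at the time when Jun and Fosl1 footprints were below those of untreated cells. Of the genes known to be activated through AP-1, 3 of 14 were higher at 0.5 h, Ptgs2 (1.67), Il6 (1.21) and Plau (1.14), against 6.49% of all genes. At 4 h 3 of 14 were higher, Il6 (1.79), Ptgs2 (1.59) and Hmox1 (1.07), against 4.01% of all genes. Another 3 were lower, among them Ccnd1 (-1.97) and Plaur (-1.48), against 2.29% of genes. After 20 min of DTT recovery 2 of 14 were higher than in untreated cells, Il6 (3.13) and Dcn (1.80), against 6.19% of all genes. Taken by fraction, 0 of 18 of these genes were higher and 6 lower in the ER at 0.5 h of Tg (14.2% of genes were lower), while 11 of 14 were higher in the cytosol (17.6% of genes were), with a median of 3.99 beside a summed median of 0.26. Most encode secreted or membrane proteins, and the part of a shift between fractions in their values per fraction was not tested.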

How the data were processed

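Per the labels, footprints came from nuclease-digested, pelleted and gel-purified ribosomes and mRNA libraries from fragmented RNA depleted of ribosomal RNA, in 52 samples of 26 groups with 2 replicates each. The 12 DTT samples are not labelled by assay, although their table holds both. Per the submitters' processing notes reads were aligned with Bowtie; the version of Bowtie and the genome build are not given in these notes. The authors deposited 2 gene tables. The score in their footprint and mRNA columns was scaled by the authors in an unstated way, with 1 pooled value a group. Ribosome density columns hold a ratio of footprints to mRNA, deposited by the authors. A deposited TRUE or FALSE column has no header. No counts were analysed, so the depth and the precision of each value are unknown.

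From these, log2(score + 1) differences were computed for genes with a value in both columns, over 48 comparisons (Python 3.11.15, pandas 2.3.3, NumPy 2.4.6). Density was compared as a log2 ratio without a pseudocount. Planned replicate tests were not run, since each group has 1 value, and over 2-fold replaced them. The computation was tested on simulated data whose shifts were well past 2-fold and placed in genes without low scores. Shifts near 2-fold, or at scores as low as those of untreated Fos and Fosb, were not simulated. Likeness named the 3 genes with the highest Pearson r to each gene; 5 pathway lists name up to 4 genes past 2-fold, or the 2 with the highest scores. The genes and lists were chosen with earlier results of these data known, and comparisons of recovery with untreated cells and list sums were added after seeing the data. Genes are uncertain where near-identical copies exist. Alternatives were another pseudocount, filters on level and completeness, centring, summed fractions and recomputed density. Some genes that these naming rules reach are not reported here.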

Additional observations from a re-analysis of the deposited data

Results flagged for a closer look

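Jund differed in direction between the fractions at 1 h of Tg. Its footprints were higher than in untreated cells in the ER (12.7 against 7.88, log2 difference 0.63) and lower in the cytosol (7.23 against 12.7, -0.73), so that the ER and cytosol differences lay 1.36 apart. This difference between the fractions was not tested. Neither value passed 2-fold on its own, and the scores of Jund are low, with unknown depth.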

How the results depend on the processing

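No paired analysis was possible because each group is given as 1 pooled value without replicate columns; for the same reason no replicate could be left out. Of 136 footprint differences of the 8 genes, 56 were over 2-fold. A pseudocount of 0.1 added 2 and removed 0. A smaller pseudocount can only enlarge a difference in size, so none could be removed or turn its sign. A larger pseudocount was not tried. Centring on the median gene removed 7 and added 5. Summing the fractions (126 values, 53 over 2-fold) removed 6 and added 9. The ER and cytosol differences of a comparison were each set against the same sum, here and for mRNA. These values are thus not all separate sums. A filter on level (116 values) or on a value in every column (133 values) only drops genes and leaves each kept difference as it was. Neither filter could therefore move a value. No difference over 2-fold turned its sign after centring or after summing the fractions. The count of genes over 2-fold at 0.5 h of Tg in the ER was 3, but 1 among the 6 genes above the filter on level and 5 after centring. After 30 min of DTT in the ER it was 2, but 1 with the filter and 4 for summed fractions. After 10 min of recovery against DTT in the cytosol it was 2, but 1 for summed fractions. Against untreated cells, in comparisons chosen after seeing the data, it was 1 in place of 2 in the ER with the filter and 2 in place of 4 in the cytosol for summed fractions. For ER minus cytosol in untreated cells it was 0, but 1 (Jun) after centring. Recomputing density from the scores moved 4 of 14 density values, of which Fosl2 after 30 min of DTT in the ER changed sign, at 0.38 as deposited and -0.40 recomputed, both within 2-fold. Fosl1 passed 2-fold when recomputed, at 2 h of Tg in the ER (1.21) and at 4 h in the cytosol (-1.14), and Fosl2 after 20 min of recovery against DTT in the ER also changed sign, at -0.07 as deposited and 0.16 recomputed. For mRNA, summing moved 4 of 8 values, among them Fosl1 at 0.5 h of Tg in the cytosol, at 1.33 alone and 0.27 summed.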
